A study of Mus musculus with 20 samples.

Results

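The 7 genes that hold back the cell cycle or rise in arrested cells and were followed across sorted muscle and bone marrow cells are the cyclin-dependent kinase (CDK) inhibitors Cdkn1a, Cdkn1b, Cdkn1c, Cdkn2c and Cdkn2d, and the growth arrest-specific genes Gas1 and Gas6. They were picked out by gene symbol from the table that pairs the array's probe sets with genes. They make up 7 of the 8251 genes and 9 of the 12422 probe sets named or measured on the array, and 8 of these 9 are among the 10310 probe sets that were tested, those above a signal floor on at least 5 of the 20 arrays. The ninth, 1 of the 2 probe sets of Cdkn1b, was above the floor on 3 arrays and was not tested.

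The samples were cells of adult C57BL/10SnJ mice, an inbred strain, with no genetic change or treatment given in the labels. From skeletal muscle and from bone marrow, a side population (SP), the cells that pump out a DNA-binding dye, and a main population (MP) of other cells had been sorted, and total RNA of 5 samples of each of the 4 groups was measured on expression arrays. Sorted populations are mixtures, and an array reports their average, so fewer cells of a type and less RNA per cell cannot be told apart. Whether replicates are separate animals or separate sorts is not in the labels, and p-values therefore measure only how much these samples varied, which may be technical.

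CDK inhibitors fall into a pair of families. Cip/Kip proteins (p21 from Cdkn1a, p27 from Cdkn1b, p57 from Cdkn1c) bind cyclin-CDK complexes of several kinds, whereas INK4 proteins (p18 from Cdkn2c, p19 from Cdkn2d) bind Cdk4 and Cdk6 and keep cyclin D from activating them, which leaves Rb in the form that restrains E2F. Cdkn1c is an imprinted gene expressed from the maternal copy and is known for its part in keeping blood stem cells out of the cycle. Gas1 encodes a membrane-anchored protein that binds Hedgehog ligands, and Gas6 a vitamin K-dependent secreted ligand of the receptor kinases Tyro3, Axl and Mertk.

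Members that passed the test between SP and MP cells of a tissue were Cdkn1a, Cdkn1c, Cdkn2d and Gas1. To show their regulatory sequence, the 250 bases before each start site in the table used are given for Cdkn1a, which has 2, Cdkn2d and Gas1, from RefSeq with the mouse build GRCm38.p6, 5′ to 3′ on the gene's strand. Capitals mark GC boxes, the letters GGGCGG on either strand. The Cdkn1a sequences lie at chr17:29090729-29090978 (upstream start) and chr17:29093519-29093768 (downstream start) on the plus strand, that of Cdkn2d at chr9:21291210-21291459 on the minus strand and that of Gas1 at chr13:60177536-60177785 on the minus strand.
Cdkn1a upstream start: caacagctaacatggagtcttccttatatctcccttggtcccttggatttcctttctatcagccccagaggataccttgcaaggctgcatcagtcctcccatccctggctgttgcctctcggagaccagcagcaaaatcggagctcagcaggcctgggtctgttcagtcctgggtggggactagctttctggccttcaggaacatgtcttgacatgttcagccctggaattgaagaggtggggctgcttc
Cdkn1a downstream start: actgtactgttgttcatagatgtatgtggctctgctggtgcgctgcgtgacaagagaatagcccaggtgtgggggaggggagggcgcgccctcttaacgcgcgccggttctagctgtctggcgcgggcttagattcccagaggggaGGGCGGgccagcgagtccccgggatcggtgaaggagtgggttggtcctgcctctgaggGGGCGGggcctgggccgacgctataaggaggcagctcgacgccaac
Cdkn2d: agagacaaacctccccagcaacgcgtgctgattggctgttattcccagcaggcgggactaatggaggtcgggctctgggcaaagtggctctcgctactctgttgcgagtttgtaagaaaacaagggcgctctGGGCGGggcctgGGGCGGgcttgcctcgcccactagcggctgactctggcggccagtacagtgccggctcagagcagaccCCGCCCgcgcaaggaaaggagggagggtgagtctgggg
Gas1: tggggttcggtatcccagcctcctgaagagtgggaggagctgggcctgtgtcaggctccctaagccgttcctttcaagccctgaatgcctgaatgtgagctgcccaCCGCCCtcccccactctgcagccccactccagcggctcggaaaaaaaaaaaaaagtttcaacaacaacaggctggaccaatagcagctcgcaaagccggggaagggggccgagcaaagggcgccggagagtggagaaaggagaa
The Cdkn2d window held 3 GC boxes, the downstream Cdkn1a window 2, the upstream Cdkn1a window 0 and the Gas1 window 1. A GC box was found in 32.7% of 32851 mouse windows of the same length, and the median GC content of all windows was 52.4%, against 54.0% and 64.8% for the upstream and downstream Cdkn1a windows, 63.6% for Cdkn2d and 58.8% for Gas1. The TATAA letters, searched on both strands and present in 22.8% of all windows, occurred 1 time in each Cdkn1a window and in neither of the other sequences. The table held 8 windows for 6 of the 7 members, all but Cdkn1c. These matches describe letters and not sites in use.

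Values are log2 signals after quantile normalization, with the floor at 6.71 (105 signal units), and each array's median before normalization was between 318 and 612 signal units. Differences are log2 differences ± standard error, tested with limma across all 10310 probe sets with Benjamini-Hochberg adjusted p and a threshold of 0.05. Levels of different probe sets are not on 1 scale and are compared only between groups. Marker genes went with the labels in part. All 8 blood stem cell markers were higher in bone marrow SP than MP, and 0 of 8 passed between muscle SP and MP. The satellite cell genes Myf5, Calcr and Fgfr4 were at the floor on all 10 marrow arrays and not throughout either muscle group. Of 6 tested satellite cell genes, 2 were called higher in muscle than in marrow in SP cells and 5 in MP cells. The GAPDH 3' to 5' log2 ratio, a control that rises with RNA degradation or amplification from the 3' end, was higher on SP arrays by 1.16 in muscle (exact two-sided permutation p = 0.0238, adjusted over 4 ratio tests 0.0317) and by 1.05 in marrow (exact permutation p = 0.0397, adjusted 0.0397). The beta-actin 3' to 5' log2 ratio was also higher on SP arrays, by 1.08 in muscle (exact permutation p = 0.0159, adjusted 0.0317). In marrow it was higher by 1.09 (exact permutation p = 0.00794, adjusted 0.0317). The GAPDH ratio was highest on muscle SP 1 and on replicates 4 and 5 of bone marrow SP, and results are given without these 3 arrays where they matter. No check used the beta-actin ratio.

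**Figure D1:**
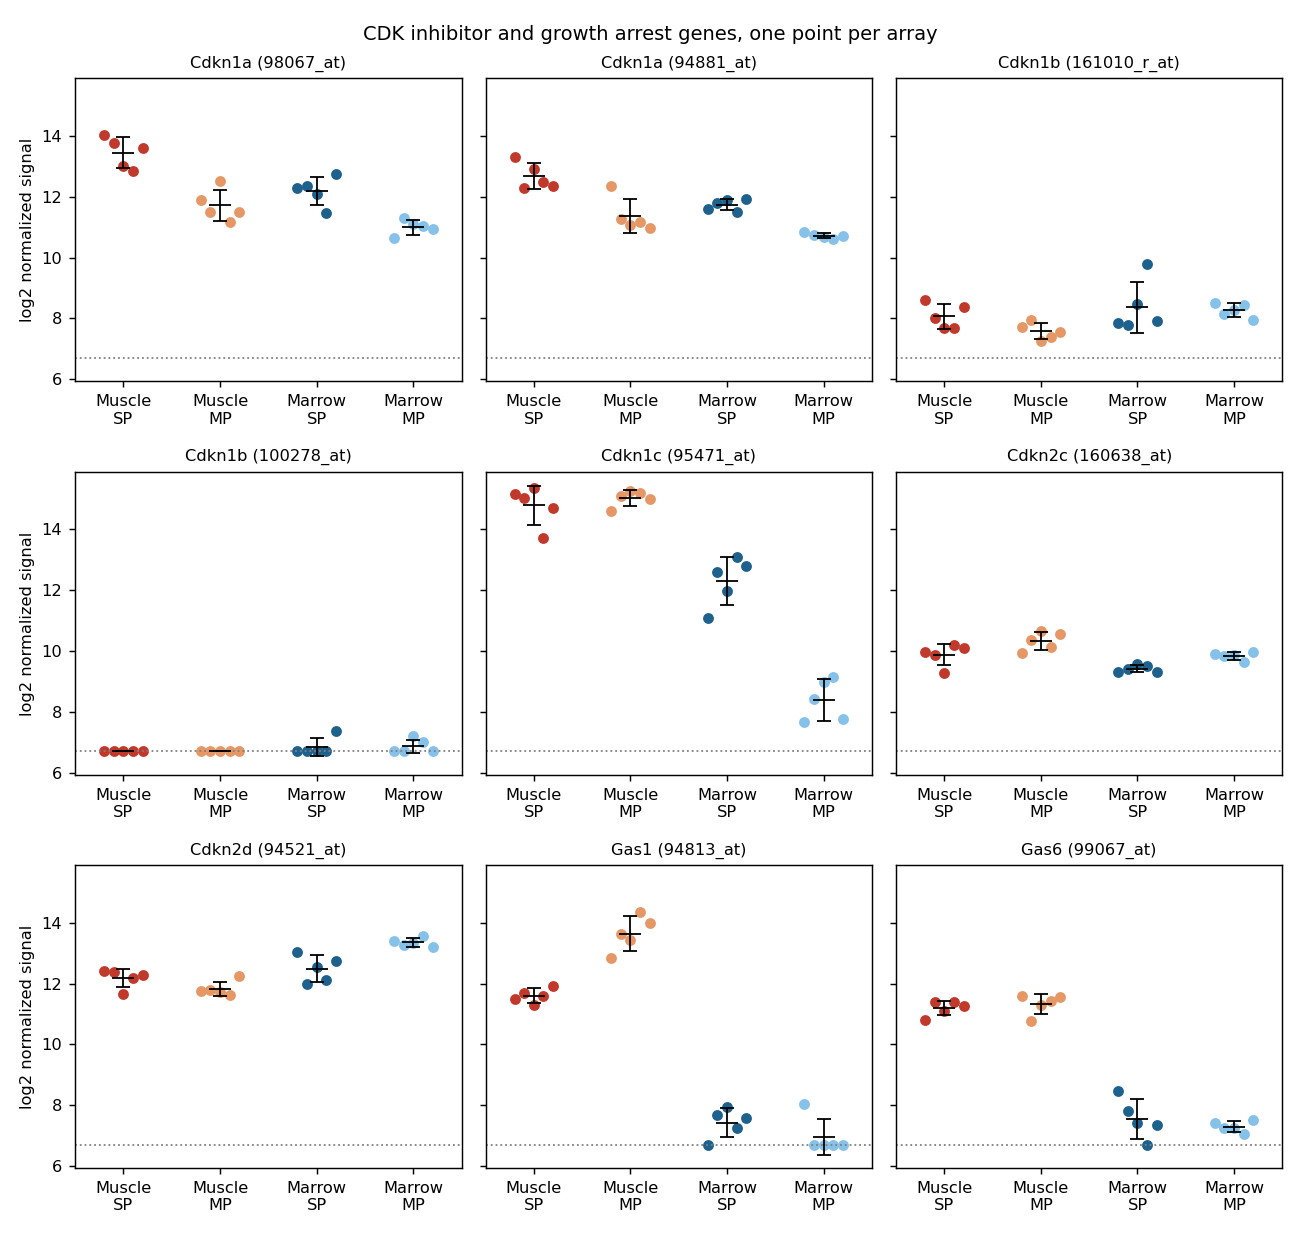
Log2 normalized signal (y axis) of the 9 member probe sets in the 4 groups (x axis), with 1 point per array in order of replicate number, black bars for the mean ± SD of 5 arrays and a dotted line at the floor of 6.71. The Cdkn1c panel shows both muscle groups at 13.72 or higher, bone marrow SP between 11.07 and 13.08 and bone marrow MP at 9.15 or lower; heights in different panels are not comparable.

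Muscle SP cells differed from muscle MP cells in 2 of the 7 genes, with more Cdkn1a and less Gas1. Of the 8 tested probe sets 3 passed the threshold, 2 higher and 1 lower, where 11.7% of all probe sets passed, 5.1% higher and 6.64% lower. The median log2 difference of the 8 was 0.12, against 0.03 for all probe sets. In bone marrow, SP cells had more Cdkn1a and Cdkn1c and less Cdkn2d than MP cells, 4 of 8 probe sets with 3 higher and 1 lower, where 30.2% of all passed, 15.4% higher and 14.8% lower. The median of the 8 was 0.35 against 0.02 for all probe sets. Of all probe sets called in marrow 50.9% were higher in SP, a share that was 72.2% without normalization and 32.9% with median scaling, and the median of all probe sets moved to 0.31 and to -0.08.

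**Figure D2:**
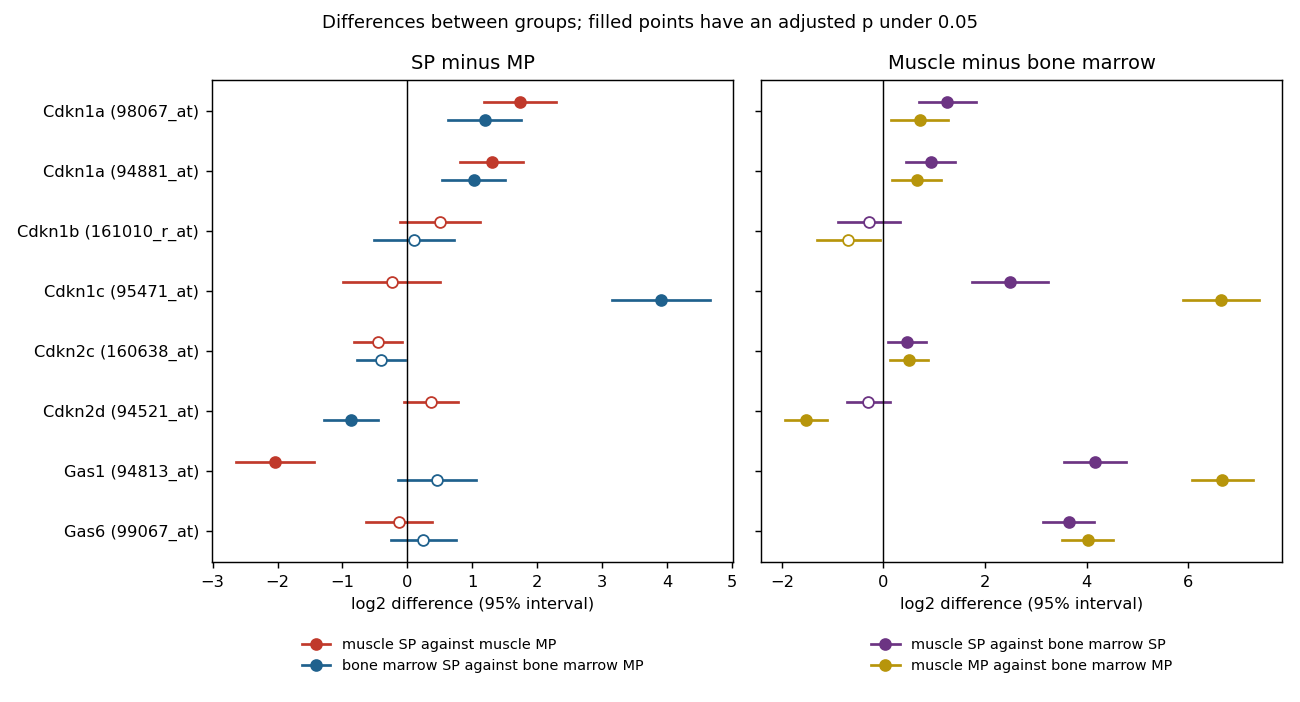
Log2 differences with 95% intervals (x axes) for the 8 tested member probe sets (y axis), SP minus MP on the left and muscle minus bone marrow on the right, with filled points for an adjusted p under 0.05. Cdkn1a is right of 0 in all 4 comparisons, and the largest SP to MP difference is that of Cdkn1c in bone marrow, 3.91.

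Cdkn1a, the inhibitor induced by p53 and by many stress and growth-arrest signals, was the member that was higher in SP than in MP cells in both tissues, on both of its probe sets. On probe set 98067_at the muscle SP arrays read 14.03, 13.75, 13.01, 12.83 and 13.61, and the muscle MP arrays 11.88, 11.50, 12.50, 11.17 and 11.50. Every SP array was above every MP array in muscle, although muscle MP 3 came near the lowest SP array. The bone marrow SP arrays read 12.29, 12.33, 12.09, 11.46 and 12.76, and the bone marrow MP arrays 10.64, 11.31, 11.09, 11.03 and 10.92. Marrow groups did not overlap either, although bone marrow SP 4 came close to the MP arrays. SP and MP arrays did not overlap for 2 of the 8 tested member probe sets in muscle and 5 in marrow. Among all probe sets tested the shares were 10.1% and 20.1%. The difference was 1.73 ± 0.27 in muscle (3.33-fold, limma adjusted p = 1.40e-04) and 1.19 ± 0.27 in marrow (2.28-fold, limma adjusted p = 0.00168).

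The other Cdkn1a probe set, 94881_at, read 13.31, 12.28, 12.91, 12.48 and 12.36 on muscle SP arrays and 12.36, 11.27, 11.07, 11.17 and 10.97 on muscle MP arrays. These groups overlapped through a single array, muscle MP 1, which was level with the lower SP arrays. In marrow the SP arrays read 11.59, 11.80, 11.88, 11.51 and 11.92 and the MP arrays 10.83, 10.74, 10.67, 10.60 and 10.72. Here each group was tight and the groups were apart by more than their ranges. The difference was 1.30 ± 0.23 in muscle (2.46-fold, limma adjusted p = 6.50e-04) and 1.02 ± 0.23 in marrow (2.03-fold, limma adjusted p = 0.00175). Without muscle MP 1 the muscle difference was 1.55.

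The SP to MP difference of Cdkn1a was not shown to differ between the tissues. The muscle difference exceeded the marrow difference by 0.54 on 98067_at (95% interval -0.25 to 1.34, limma adjusted p = 0.372) and by 0.28 on 94881_at (-0.41 to 0.96, limma adjusted p = 0.635). By mean the order of the groups was muscle SP, bone marrow SP, muscle MP and bone marrow MP on both probe sets, with the ranges of bone marrow SP and muscle MP overlapping. With the arrays scaled to 1 median in place of quantile normalization, the marrow difference on 98067_at was 0.75 with a limma adjusted p of 0.0542, so that this call ended, while 94881_at stayed called in both tissues under every alternative run.

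Because the GAPDH ratio was higher on SP arrays, as Cdkn1a was, the test was repeated with that ratio as a covariate. On 98067_at the differences were then 1.81 ± 0.34 in muscle (limma adjusted p = 0.00156) and 1.26 ± 0.33 in marrow (0.00687). On 94881_at they were smaller, 0.93 ± 0.26 in muscle (limma adjusted p = 0.0255) and 0.69 ± 0.25 in marrow (0.0469). All 4 stayed called, as they did without the 3 arrays of highest ratio, at 1.59 and 1.14 in muscle and 1.24 and 1.04 in marrow. As the ratio went with the sorted population, these fits cannot fully tell ratio and population apart. T and NK cell markers also rose in SP cells, 4 of 7 in muscle and 7 of 7 in marrow. Their summed signal was 3315 to 51407 on muscle SP arrays against 503 to 807 on muscle MP arrays, with Cd3e and Cd3g at the floor in both muscle groups and Cd3d and Klrd1 also in MP. In marrow it was 43142 to 85316 against 3386 to 6301. Blood stem cell markers rose for 0 of 8 genes in muscle SP and 8 of 8 in marrow SP cells. Endothelial markers rose for 2 of 8 in muscle and 6 of 8 in marrow. The part of any of these cell types in the Cdkn1a result was not tested.

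**Figure D3:**
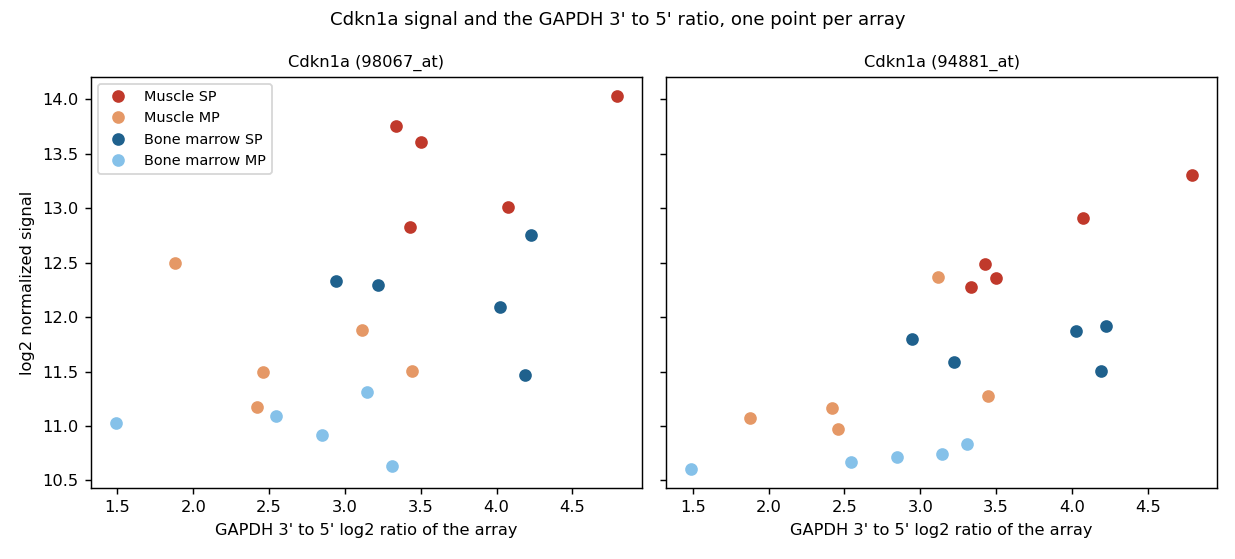
Cdkn1a log2 normalized signal (y axis) on probe sets 98067_at (left) and 94881_at (right) against the GAPDH 3' to 5' log2 ratio of the same array (x axis), with 1 point per array coloured by group. Muscle SP 1 has the highest ratio, 4.79, and the highest signal on both probe sets. The marrow groups share only ratios of 2.94 to 3.31, where bone marrow SP 1 and SP 2 sit above bone marrow MP 1 and MP 2.

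Cdkn1c, which encodes the largest Cip/Kip protein, separated the marrow populations and did not separate those of muscle. Bone marrow SP arrays read 11.07, 12.59, 11.96, 13.08 and 12.80, and bone marrow MP arrays 7.67, 8.41, 8.98, 9.15 and 7.76. The lowest SP array was well above the highest MP array. The difference was 3.91 ± 0.36 (14.99-fold, limma adjusted p = 4.41e-08). In muscle the SP arrays read 15.17, 15.01, 15.34, 13.72 and 14.69 and the MP arrays 14.61, 15.10, 15.26, 15.17 and 14.98. Muscle values were the highest of the 4 groups and overlapped almost entirely, with muscle SP 4 below the rest. The muscle difference was -0.24 (95% interval -0.99 to 0.51, limma adjusted p = 0.760), and its sign turned, to 0.067, without normalization and, to 0.025, without muscle SP 4.

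The SP to MP difference of Cdkn1c itself differed between the tissues, by -4.15 ± 0.51 (limma adjusted p = 6.38e-06), 1 of 3 members with such a difference where 18.5% of all probe sets had one. Without the 3 arrays of highest GAPDH ratio the marrow difference was 3.48, and with the ratio as a covariate 3.93. In the same marrow arrays, 8 of 8 blood stem cell markers and 6 of 8 endothelial markers were higher in SP cells. So were 7 of 7 T and NK cell markers, with a summed signal of 43142 to 85316 against 3386 to 6301. Summed blood stem cell marker signal was 22867 to 36977 on SP arrays and 3886 to 5527 on MP arrays, where Thy1 and Tek were at the floor. Summed endothelial signal was 5878 to 10438 against 2517 to 3123, with Tek and Tie1 at the floor in MP cells. The part of any of these cell types in the Cdkn1c result was not tested.

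Cdkn1b, the inhibitor whose amount is set largely by breakdown of its protein, passed the threshold in none of the 5 comparisons. Its tested probe set, 161010_r_at, has the name suffix r_at in place of the plain at of the other member probe sets, so its specificity is less sure. It read 8.60, 8.01, 7.69, 7.69 and 8.39 in muscle SP, 7.72, 7.94, 7.28, 7.39 and 7.56 in muscle MP, 7.84, 7.78, 8.49, 9.79 and 7.91 in bone marrow SP and 8.51, 8.15, 8.29, 8.44 and 7.94 in bone marrow MP. All 4 groups overlapped in a dim range, with bone marrow SP 4 as the only array above 9. The differences were 0.50 (95% interval -0.11 to 1.12) in muscle and 0.10 (-0.52 to 0.71) in marrow, and the marrow value changed sign, to -0.26, without bone marrow SP 4. Muscle MP was below bone marrow MP by 0.69 with a limma adjusted p of 0.0622. Without bone marrow SP 4, an array of neither group, the difference was unchanged and the limma adjusted p was 0.00884. All groups share the fit's estimate of spread. This difference also passed with median scaling, in a fit of the MP groups alone, and with the GAPDH ratio as a covariate. It passed too without the 3 arrays of highest ratio. Over all alternatives the limma adjusted p was between 0.00350 and 0.376. The other probe set, 100278_at, was at the floor on 17 of 20 arrays and read 7.38 on bone marrow SP 5, 7.20 on bone marrow MP 3 and 7.00 on bone marrow MP 4.

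Cdkn2d, an INK4 gene, had its highest values in bone marrow MP and was lower in SP cells of marrow. Bone marrow SP arrays read 13.04, 11.98, 12.56, 12.10 and 12.73 and bone marrow MP arrays 13.38, 13.25, 13.34, 13.56 and 13.21. The highest SP array fell just short of the lowest MP array, and the MP arrays were tighter. The difference was -0.87 ± 0.20 (1.82-fold lower, limma adjusted p = 0.00212), and -1.52 when the arrays were scaled to 1 median. In muscle the SP arrays read 12.42, 12.37, 11.67, 12.19 and 12.29 and the MP arrays 11.75, 11.78, 11.73, 11.63 and 12.24. These overlapped through muscle SP 3 and muscle MP 5, and the difference was 0.36 (95% interval -0.06 to 0.78, limma adjusted p = 0.290). The tissues differed in the SP to MP difference by 1.23 ± 0.29 (limma adjusted p = 0.00387).

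Markers of some blood cell types moved with Cdkn2d in marrow. In SP cells B lineage markers were lower for 7 of 7 genes, macrophage markers for 4 of 7 and granulocyte markers for 1 of 8, while T and NK cell markers were higher for 7 of 7. Summed B lineage signal was 2023 to 4349 on SP arrays and 8498 to 14926 on MP arrays, and summed granulocyte signal 108539 to 263215 against 371809 to 407906. Summed macrophage signal was 21078 to 65229 against 95619 to 118901, and summed T and NK cell signal 43142 to 85316 against 3386 to 6301. No marker of these 4 lists was at the floor throughout either marrow group, and their part in the Cdkn2d result was not tested.

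Cdkn2c, the INK4 member known for restraining the renewal of blood stem cells, did not pass the threshold between SP and MP cells of either tissue. Muscle SP arrays read 9.97, 9.88, 9.29, 10.20 and 10.09 and muscle MP arrays 9.95, 10.35, 10.65, 10.14 and 10.57. Bone marrow SP arrays read 9.31, 9.40, 9.58, 9.52 and 9.31 and bone marrow MP arrays 9.89, 9.84, 9.85, 9.64 and 9.96. Marrow SP was lower than marrow MP on every array, but by a small amount, and the muscle groups overlapped. The differences were -0.41 ± 0.18 in marrow (limma adjusted p = 0.0885) and -0.45 ± 0.18 in muscle (0.113). A fit of the marrow groups alone gave the marrow difference an adjusted p of 0.00954, median scaling 0.0452 and the fit without muscle SP 3 0.0497, whereas without normalization the difference was -0.034 (adjusted p = 0.915).

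Gas1 was lower in SP than in MP cells of muscle. Muscle SP arrays read 11.49, 11.71, 11.29, 11.58 and 11.94 and muscle MP arrays 12.83, 13.63, 13.44, 14.34 and 13.98. No muscle SP array reached any muscle MP array. The difference was -2.04 ± 0.29 (4.12-fold lower, limma adjusted p = 5.41e-05). Bone marrow SP arrays read 7.70, 7.93, 7.26 and 7.58 with 1 at the floor, and of the bone marrow MP arrays 1 read 8.04 and 4 were at the floor. Gas1 was thus near the limit of measurement in marrow, where the SP to MP difference was 0.46 (95% interval -0.14 to 1.06, limma adjusted p = 0.262). That value was 0.73 without bone marrow MP 1 (adjusted p = 0.0476), 0.84 without normalization (0.0109) and -0.01 with a floor at the 40th percentile. The tissues differed in the SP to MP difference of Gas1 by -2.50 ± 0.41 (limma adjusted p = 1.55e-04).

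Fibroblast, satellite cell and macrophage markers fell with Gas1 in muscle SP cells, 5 of 7, 4 of 6 and 7 of 7 genes. Summed fibroblast marker signal was 65172 to 113142 on muscle SP arrays and 175181 to 258771 on muscle MP arrays, with no fibroblast marker at the floor in either group. Summed satellite cell signal was 3473 to 17931 against 13249 to 17277, so those ranges overlapped, and summed macrophage signal was 3866 to 13667 against 23477 to 31582, with Adgre1 at the floor in SP cells. Their part in the Gas1 result was not tested. With the GAPDH ratio as a covariate the Gas1 difference in muscle was -2.11, and without the 3 arrays of highest ratio -2.02.

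Gas6 followed the tissue and was not separated by the sort. Muscle SP arrays read 10.82, 11.39, 11.12, 11.40 and 11.27 and muscle MP arrays 11.58, 10.76, 11.30, 11.41 and 11.55. Marrow arrays were much dimmer, at 8.46, 7.83, 7.42, 6.71 (the floor) and 7.34 in SP and 7.41, 7.26, 7.27, 7.07 and 7.52 in MP. In each tissue the SP and MP ranges overlapped. The SP to MP difference was -0.12 in muscle (95% interval -0.63 to 0.38), with its sign turned, to 0.20, when the GAPDH ratio was a covariate. In marrow it was 0.25 (-0.26 to 0.75), and 0.82 without normalization (limma adjusted p = 0.0199).

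Between the tissues, muscle SP cells had more Cdkn1a, Cdkn1c, Cdkn2c, Gas1 and Gas6 than bone marrow SP cells. Of 8 probe sets 6 passed, every one of them higher in muscle, where 38.3% of all probe sets passed, 17.1% higher and 21.2% lower, and the median of the 8 was 1.09 against -0.11 for all. Between the MP groups 7 of 8 passed, 6 higher in muscle and Cdkn2d lower, where 46.5% of all passed, 20.9% higher and 25.6% lower, with a median of 0.68 against -0.14. The 2 tissue comparisons use different arrays. In the difference between tissues of the SP to MP change, 3 of 8 passed, 1 positive and 2 negative, against 8.69% positive and 9.85% negative among all probe sets, and the median was 0.12 against 0.02. Of all probe sets called there 46.9% were positive, a share that was 30.4% without normalization and 62.2% with median scaling.

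Gas1 and Gas6 had the widest SP tissue gaps of the members. Gas1 was higher in muscle by 4.16 ± 0.29 in SP (17.9-fold, limma adjusted p = 7.47e-11) and by 6.67 ± 0.29 in MP cells (limma adjusted p = 1.57e-14). Because 4 of 5 bone marrow MP arrays were at the floor, the latter value moved with it, to 5.64 with a floor at the 40th percentile. Gas6 was higher by 3.64 ± 0.24 in SP (12.5-fold, limma adjusted p = 3.47e-11) and by 4.02 ± 0.24 in MP cells (16.2-fold, 3.88e-12), and by 3.11 and 3.33 with the higher floor. Fibroblast markers, 7 of 7, and endothelial markers, 7 of 8, were higher in muscle than in marrow in both populations. Of the endothelial markers, 1 did not pass in SP cells and 1 was lower in muscle in MP cells. Pericyte and smooth muscle markers were higher in muscle for 5 of 5 genes in both populations. In SP cells the summed fibroblast signal was 65172 to 113142 in muscle against 1846 to 3526 in marrow, and the summed endothelial signal 114458 to 141326 against 5878 to 10438. In MP cells the fibroblast signal was 175181 to 258771 against 1978 to 2835, with Col1a2 and Serpinf1 at the floor in marrow, and the endothelial signal 87075 to 104683 against 2517 to 3123, with Tek and Tie1 at the floor in marrow. Their part in the Gas1 and Gas6 results was not tested.

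Cdkn1c was higher in muscle by 2.49 ± 0.36 in SP (5.60-fold, limma adjusted p = 6.76e-06) and by 6.63 ± 0.36 in MP cells (99.3-fold, limma adjusted p = 6.15e-13). Cdkn1a was higher in muscle SP than in marrow SP by 1.26 ± 0.27 and 0.93 ± 0.23 on its probe sets 98067_at and 94881_at (limma adjusted p = 6.48e-04 and 0.00269). In MP cells its differences were 0.71 ± 0.27 and 0.66 ± 0.23 (limma adjusted p = 0.0340 and 0.0249). The 98067_at call in MP cells ended with median scaling (adjusted p = 0.0761), with no filter (0.0524) and without any of muscle MP 1, muscle MP 3, bone marrow MP 1, bone marrow MP 4 or bone marrow MP 5, with adjusted p up to 0.123. The 94881_at call ended without muscle MP 1, at 0.41 (adjusted p = 0.0944).

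Cdkn2d went the other way in MP cells, lower in muscle than in marrow by 1.52 on the log2 scale, a difference of -1.52 ± 0.20 (2.87-fold, limma adjusted p = 1.30e-06). In SP cells it was -0.30 (95% interval -0.72 to 0.12, limma adjusted p = 0.270). Cdkn2c was higher in muscle by 0.46 ± 0.18 in SP (limma adjusted p = 0.0449) and 0.50 ± 0.18 in MP cells (0.0260). The SP call ended under 20 of the 31 alternatives run, with adjusted p up to 0.266, and the MP call ended without muscle MP 3, muscle MP 5 or bone marrow MP 4, with adjusted p up to 0.0799.

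The partners through which these members act were followed in 6 lists. Between SP and MP cells, the share of tested genes called was 15.4% in muscle and 23.1% in marrow for cyclins and CDKs, 14.3% and 42.9% for Rb and E2F proteins, 8.33% and 58.3% for regulators of Cip/Kip inhibitors, and 40% and 33.3% for other INK4 and growth arrest genes. It was 33.3% and 16.7% for Gas6 receptors and the vitamin K pathway and 11.1% and 22.2% for Hedgehog partners of Gas1, where 11.7% and 30.2% of all probe sets were called. With 6 to 15 genes a list, these shares describe the lists and set none apart. Of the list of cyclins and CDKs, which also holds phosphatases that activate CDKs, 13 of 19 genes were tested. In muscle SP cells 2 fell and none rose: Ccnd1, cyclin D1, by -0.96 ± 0.20 (limma adjusted p = 0.00272) and its partner kinase Cdk4 by -0.89 ± 0.22 (0.00811). In marrow SP cells 1 rose and 2 fell. Ccnd2, cyclin D2, was higher by 2.36 ± 0.27 (5.13-fold, limma adjusted p = 6.72e-07), Ccnd3, cyclin D3, lower at -1.07 ± 0.25 and Cdc25a, a phosphatase that activates CDKs, lower at -0.71 ± 0.21. With median scaling the Ccnd3 difference was -1.71. The list medians were -0.07 in muscle and 0.18 in marrow, against 0.03 and 0.02 for all probe sets. Between the tissues, Cdk1, the mitotic kinase, was lower in muscle by a difference of -2.96 ± 0.26 in SP and -1.73 ± 0.26 in MP cells, while Ccnd1 was higher by 2.49 ± 0.20 and 3.22 ± 0.20. Of the 13 genes, 1 was higher and 8 lower in muscle SP than in marrow SP, and 3 were higher and 7 lower in MP cells. Of all probe sets, 17.1% were higher and 21.2% lower in SP cells, and 20.9% and 25.6% in MP cells. The SP to MP change differed between the tissues for 18.5% of all probe sets. The tissues differed in the SP to MP change of 3 of the 13, by -1.88 ± 0.38 for Ccnd2, -1.23 ± 0.36 for Cdk1 and -1.23 ± 0.31 for Cdk4, and the Cdk1 and Cdk4 calls ended with median scaling (adjusted p = 0.106 and 0.0741).

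Rb and E2F proteins act below the inhibitors, and 7 of 11 listed genes were tested. In muscle SP cells E2f1, an activator of S phase genes, fell at -0.97 ± 0.26 (limma adjusted p = 0.0157) and none rose. In marrow SP cells Rb1 fell by 2.03 on the log2 scale (-2.03 ± 0.23, limma adjusted p = 6.48e-07) and E2f1 was lower at -1.01 ± 0.26, whereas E2f5, a repressor E2F, was higher at 0.53 ± 0.19 (0.0385). Rb1 differed between the tissues in its SP to MP difference by 1.74 ± 0.33 (limma adjusted p = 6.24e-04). The medians were -0.32 in muscle and -0.06 in marrow. Against marrow, muscle SP cells had 1 of the 7 genes higher and 5 lower, and muscle MP cells 1 higher and 6 lower, among them Rbl2, an Rb relative, at -1.33 ± 0.23 in SP and -0.91 ± 0.23 in MP cells. Among all probe sets 38.3% passed between the tissues in SP and 46.5% in MP cells. Names of the E2f1, Gadd45b, Gas2 and Gas7 probe sets carry a suffix for possible cross-hybridisation. The muscle calls of Cdk4 and E2f1 ended with the GAPDH ratio as a covariate (adjusted p = 0.0583 and 0.0558), and the marrow call of E2f5 ended with median scaling (0.118).

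Among 12 tested of 16 listed regulators of Cip/Kip inhibitors, 1 fell in muscle SP cells, Cks1b, a cofactor in the breakdown of p27, at -1.28 ± 0.28 (limma adjusted p = 0.00401). In marrow SP cells 5 rose and 2 fell. Fbxw7, a ubiquitin ligase subunit that targets cyclin E, was higher at 1.16 ± 0.28 (limma adjusted p = 0.00280), Myc at 1.24 ± 0.39 (0.0171) and Skp1 at 1.10 ± 0.38 (0.0308). Cks2 was lower at -0.82 ± 0.21 (0.00452) and Mdm2, the ligase that restrains p53, at -0.53 ± 0.19 (0.0379). The Myc and Skp1 calls ended without the 3 arrays of highest GAPDH ratio (adjusted p = 0.168 and 0.205), the Mdm2 call without bone marrow SP 4 (0.101), and the Cks1b call with the ratio as a covariate (0.0640). The medians were 0.08 in muscle and 0.09 in marrow. Between the tissues 1 was higher and 3 were lower in muscle SP cells, and 4 were higher and 3 lower in muscle MP cells. Among all probe sets 38.3% passed in SP and 46.5% in MP cells. Klf4, a transcription factor known to induce Cdkn1a, was the riser in SP cells, at 1.59 ± 0.23 (limma adjusted p = 6.77e-06), and was higher in MP cells by 1.93 ± 0.23 (limma adjusted p = 2.77e-07). Cks2 was lower in muscle, at -2.46 ± 0.21 in SP and -3.01 ± 0.21 in MP cells.

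Of the other INK4 and growth arrest genes, all 15 on the array of 19 listed were tested. In muscle SP cells 3 rose, Gadd45b at 1.23 ± 0.25 (limma adjusted p = 0.00178), Tob1 at 1.15 ± 0.31 (0.0175) and Btg1 at 0.53 ± 0.17 (0.0462), all known as brakes on growth or stress genes. Another 3 fell, Gas2 at -1.69 ± 0.32, Pmp22, also called Gas3, at -1.56 ± 0.37 and Gadd45a at -0.89 ± 0.24. In marrow SP cells none rose and 5 fell, with Gadd45a at -1.73 ± 0.24 (limma adjusted p = 8.34e-06), Gas7 at -1.33 ± 0.29 and Btg2 at -0.97 ± 0.22. Median scaling took Gadd45a to -2.33 and Btg2 to -1.65 in marrow, and the GAPDH covariate took Gas2 to -2.39 in muscle. Cdkn2a and Cdkn2b, the other INK4 genes, had group means between 6.71 and 7.19, near the floor, and passed the threshold in none of the 5 comparisons. The Btg1 call in muscle ended under 18 of its alternatives, that of Tob1 with median scaling (0.0592) and that of Gadd45a in muscle without muscle SP 3 (0.0525) or muscle MP 3 (0.0547). The medians were 0.08 in muscle and 0.18 in marrow. Between the tissues 5 were higher and 4 lower in muscle SP cells, and 4 higher and 5 lower in muscle MP cells. Among all probe sets 38.3% passed in SP and 46.5% in MP cells. Pmp22 was higher in muscle by 5.93 ± 0.37 in SP and 7.87 ± 0.37 in MP cells. Cdkn3, a phosphatase that acts on CDKs, was called lower in muscle in both populations, from means of 8.65 in marrow SP and 8.72 in marrow MP to a muscle SP mean of 6.82, next to the floor, and to the floor on every muscle MP array. With floors at the 10th, 25th and 40th percentile its difference was -3.22, -1.83 and -0.78 in SP and -3.47, -2.01 and -0.73 in MP cells.

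**Figure D4:**
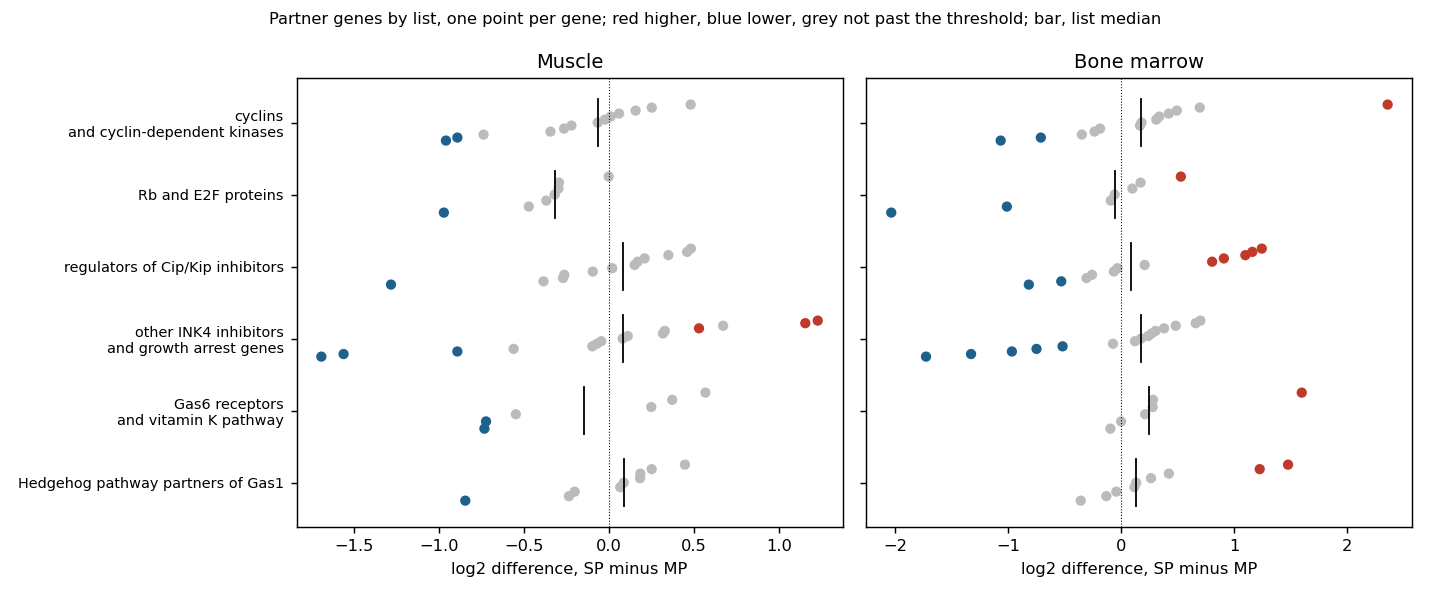
Log2 differences, SP minus MP (x axes), of the tested genes of 6 partner lists (y axis) in muscle (left) and bone marrow (right), with 1 point per gene, red for higher and blue for lower past the threshold, grey for the rest, and a black bar at the list median. Ccnd2 is the rightmost point in marrow, at 2.36, and Rb1 the leftmost, at -2.03; the x axes differ between the panels.

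For Gas6, its receptors and the vitamin K enzymes that modify it gave 6 tested genes of 7 listed. Vkorc1, which recycles vitamin K, was lower in muscle SP than MP cells at -0.72 ± 0.20 (limma adjusted p = 0.0217) and higher in marrow SP cells at 1.60 ± 0.20 (2.94e-06), and the tissues differed by -2.32 ± 0.29 (6.50e-06). Axl, a Gas6 receptor, was lower in muscle SP cells (limma adjusted p = 0.00807), with means of 6.75 in SP, next to the floor of 6.71, and 7.49 in MP cells, and was at the floor on every marrow array. Its difference depended on the floor, at -0.73 with the 25th percentile and -1.70 with the 10th. Mertk, another receptor, was higher in muscle than in marrow by 1.46 ± 0.22 in SP and 1.37 ± 0.22 in MP cells, with marrow means of 7.27 and 6.98 near the floor. A floor at the 40th percentile took these differences to 0.73 and 0.38, both still called. Pros1, a related ligand, was higher in muscle SP than in marrow SP by 3.94 ± 0.24 and in MP cells by at least 4.77, as every bone marrow MP array was at the floor, and by 2.94 and at least 3.48 with the 40th percentile floor. The muscle call of Axl ended with the GAPDH ratio as a covariate (0.0790), and that of Vkorc1 without muscle MP 2 (0.0739) or muscle SP 4. The list medians for SP against MP were -0.15 in muscle and 0.25 in marrow, with 0 higher and 2 lower in muscle and 1 higher and 0 lower in marrow. Between the tissues 3 were higher in muscle SP and 4 in muscle MP cells, and 0 were lower. Among all probe sets 17.1% were higher in muscle in SP and 20.9% in MP cells.

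Of the Hedgehog pathway genes that Gas1 works with, 9 of 14 listed were tested. In muscle SP cells 1 fell, the transcription factor Gli2, at -0.84 ± 0.23 (limma adjusted p = 0.0179), with means of 6.92 and 7.77, a call that ended under 6 of its alternatives, among them a floor at the 10th percentile (-1.53, adjusted p = 0.112) and the GAPDH ratio as a covariate (-0.55, 0.230). In marrow SP cells 2 rose: the receptor Ptch1 at 1.23 ± 0.22 (limma adjusted p = 1.50e-04), and the signal transducer Smo by at least 1.48, with every bone marrow MP array at the floor, a value that was 0.41 with a floor at the 40th percentile, where the call ended (0.180). Ptch1 was also higher in muscle than in marrow, by 1.30 ± 0.22 in SP and 2.46 ± 0.22 in MP cells. The medians were 0.09 in muscle and 0.13 in marrow. Against marrow, 3 of the 9 were higher in muscle SP and 4 in muscle MP cells, with 0 lower. Among all probe sets 17.1% were higher in muscle in SP and 20.9% in MP cells.

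Several of the weaker partner calls between SP and MP cells ended when a single array was left out. The difference need not move then, as each such fit has fewer arrays. That of Btg1 in muscle stayed at 0.53 without bone marrow MP arrays, which are outside its comparison. In marrow, E2f5 lost its call without any of bone marrow SP 3, SP 4 or SP 5 or MP 1, MP 4 or MP 5 (limma adjusted p up to 0.107), Mdm2 without any of SP 2, SP 3 or SP 4 or MP 1, MP 2 or MP 3 (up to 0.101), and Skp1 without any of SP 2, SP 4 or SP 5 or MP 1 or MP 5 (up to 0.104). Myc lost it without bone marrow SP 4 (0.0584) and Cdc25a without bone marrow MP 1 (0.0502) or the 3 arrays of highest GAPDH ratio (0.0765), and E2f1 lost its marrow call without normalization (0.0562). In muscle, Btg1 lost its call without any 1 of the 5 SP arrays, without any of MP 1, MP 2, MP 4 or MP 5 and without any of bone marrow MP 1, MP 3, MP 4 or MP 5 (up to 0.134). Tob1 lost it without muscle MP 2 (0.0584), E2f1 without muscle MP 4 (0.0501) and Gli2 without muscle MP 4 (0.0656). Ccnd1, Ccnd2, Ccnd3, Rb1, Cks2, Fbxw7, Gas2, Gas7, Pmp22, Gadd45b, Btg2 and Ptch1 kept the SP to MP calls given above under every alternative run.

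Across the 20 arrays, the genes whose log2 signal followed each member's brightest probe set most closely were ranked by Pearson's r, as a description of arrays that share tissue and population. For Cdkn1a they were Plec (0.92), Xpr1 (0.87) and Klf3 (0.85), and for Cdkn1c Nckap1 (0.98), Gnas (0.98) and Fkbp9 (0.97). Gas1 was followed by Lama2 (0.98), Gnai1 (0.98) and Postn (0.98), of which Lama2 was at the floor on all marrow arrays. For Gas6 they were Ramp2, Aplp2 and Sparcl1, each at 0.99. Cdkn2d had Inhba (0.94), Ero1a (0.93) and Tnfaip2 (0.92), and Cdkn2c had Zfp105 (0.87), Chmp3 (0.86) and Armc1 (0.85). The closest genes to Cdkn1b, Ceacam11, Nr5a1 and Gnptab, reached 0.79.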

How the data were processed

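Total RNA of 20 samples in 4 groups of 5 was measured on Affymetrix arrays. The authors deposited linear signal intensity, 1 value per probe set and array, scaled to a 2%-trimmed mean between 1500.87 and 1501.34 on every array, as the values show. The software, the summary of probes and any background correction stay not given in the sources used here. Precision is limited by the 5 arrays per group.

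The 66 control probe sets were left out. After quantile normalization a floor was set at the 25th percentile of all values (104.77), and probe sets above it on at least 5 arrays were tested with limma 3.58.1 in R 4.3.3, all groups in 1 fit, two-sided, with Benjamini-Hochberg adjustment. Normalization removes overall differences in RNA content, and the floor shrinks differences of dim genes. The script was tested on simulated data. Control ratios were compared by exact permutation. Probe sets were named through the array's gene table, checked against RefSeq of GRCm38.p6, and only those with 1 symbol were named. Figures used matplotlib 3.10.9 in Python 3.11.15.

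Named genes are all members, up to 3 rises and 3 falls past the threshold per partner list and comparison (brightest probe set per gene, of which the text describes most), and the 3 closest genes by correlation. Members and lists were chosen with earlier results of these data known. Alternatives were other normalizations, floors, filters, a pseudocount, other limma options, the replicate number as a block, the compared groups alone, the GAPDH ratio, and arrays left out. Their use on partner genes was chosen after seeing the data. Replicate numbers were not taken to pair samples, and labels name no batch.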

Additional observations from a re-analysis of the deposited data

Results flagged for a closer look

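Some single arrays stood apart from the other 4 of their group, judged by the gap to the nearest array as a share of the group's range. Of 34 groups of values tested, 4 did, and chance gives about 1 in 20 where values are spread freely. Cdkn1a on 94881_at read 12.36 on muscle MP 1, and Cdkn2d read 12.24 on muscle MP 5, each above the other muscle MP arrays. Gas1 read 8.04 on bone marrow MP 1 and Cdkn1b on 100278_at read 7.38 on bone marrow SP 5, where the other arrays of the group shared the floor value, so that any array above it stands apart and that rate does not apply.

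The SP to MP differences of 3 members differed between muscle and bone marrow by the limma test of that difference. It was -4.15 for Cdkn1c, -2.50 for Gas1 and 1.23 for Cdkn2d, muscle minus marrow.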

How the results depend on the processing

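The number of member probe sets called stayed within 1.5 times under every alternative: 3 in muscle SP against MP, 4 to 6 in marrow, 5 to 6 and 5 to 8 between the tissues in SP and MP cells, and 3 for the difference between tissues. Of 40 member differences recomputed 800 times without 1 array, 767 kept direction and side of the threshold, 22 lost a call, 3 gained one and 8 changed sign. Of 432 values under the other alternatives, 409 kept both, 10 lost a call, 8 gained one and 5 changed sign. No called member difference changed sign. Sign changes were those of Cdkn1b in marrow SP against MP, -0.25 with the GAPDH covariate and -0.23 without the 3 arrays of highest ratio (-0.26 to 0.24 without 1 array), Cdkn1b between SP groups (-0.43 to 0.073 without 1 array), Cdkn1c in muscle, 0.067 without normalization (-0.38 to 0.025 without 1 array), Gas1 in marrow, -0.0086 with the 40th percentile floor, Gas6 in muscle, 0.20 with the covariate, and Cdkn2c in the difference between tissues (-0.13 to 0.11 without 1 array). The cause was not tested. Partner gene results were the largest calls, up to 3 rises and 3 falls per list and comparison, so sign changes were unlikely from the start. Of these 97 results, 71 kept their call throughout and 0 changed sign. The signal over the floor limits Gas1 and Gas6 in marrow and Cdkn1b everywhere.

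Whether replicate numbers pair the samples was not settled. Of 30 same-numbered pairs of arrays, 14 had deviations from their group means that correlated above 0.1, over a range of -0.14 to 0.30. Differently numbered pairs ranged from -0.37 to 0.33. The highest same-numbered value was above the highest other value for muscle SP with bone marrow MP (0.29 against 0.15). It was also above for muscle MP with bone marrow SP (0.19 against 0.15) and with bone marrow MP (0.26 against 0.20). For bone marrow SP with bone marrow MP it was above as well (0.21 against 0.18). It was below for muscle SP with muscle MP (0.21 against 0.33) and with bone marrow SP (0.30 against 0.33). With the number as a block, member calls were those given except Cdkn2c between the SP groups, which stayed at 0.46 and lost its call (limma adjusted p = 0.0584).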
